A study of Mus musculus with 12 samples.

Results

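Collagen genes are described here in 12 RNA-seq libraries of mouse pluripotent stem cells. The family was taken as every gene whose symbol reads Col, a number, a and a number, which gave 44 of the 57180 genes in the tables. Summed over the libraries, 43 of them reached 10 counts and entered the tests, and 34 had a mean of at least 0.5 CPM (counts scaled to a common library size) in at least 1 group, a limit passed by 32.5% of all genes. Just inside that limit stood Col1a2, at 0.553 CPM in its highest group, and just outside it Col14a1, at 0.445 CPM. The 10 genes below the limit, which are Col3a1, Col24a1, Col4a3, Col4a4, Col8a1, Col10a1, Col9a1, Col14a1, Col19a1 and Col25a1, enter the counts of tested members but are otherwise described only where called. Col10a1, with 2 counts in all, was the member not tested.

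The libraries come from the E14 DOX-CRISPRi line, a male mouse embryonic stem cell (ESC) line on a 129/Ola background. A chosen clone of it carries a CRISPR interference repressor at the Tigre locus that doxycycline (DOX) switches on, and guide RNAs added by a piggyBac vector lead the repressor to a start site. Neg cells carry scramble guides and 3xKD cells carry guides against Pcx, Me1 and Me2, which encode enzymes that carry carbon between pyruvate, oxaloacetate and malate. Each line was sequenced in triplicate as naive ESCs, kept in N2B27 with 2iLIF on fibronectin, and as epiblast-like cells (EpiLCs) at day 2 of induction in medium with Activin A, Fgf2 and XAV939. Per the study's methods its cell lines were kept in low oxygen, at 5%. The labels do not name DOX and the study's methods give DMSO or DOX for such cultures, but the study describes the sequenced cells as treated with DOX, so all 12 libraries are taken to share the repressor. In the labels, the field for cell type says ESCs for all Neg libraries and EpiLCs for all 3xKD libraries. The titles hold each state in each line and were followed. All 8 naive markers tested were called lower and all 6 formative markers called higher in Neg EpiLCs than in Neg ESCs. State markers also differed between the lines. The naive markers summed to 4160 to 4280 CPM in Neg ESCs and 2920 to 2980 in 3xKD ESCs, with 4 of 8 called lower, and to 308 to 321 in Neg EpiLCs and 398 to 415 in 3xKD EpiLCs, with 3 called higher and 1 lower. The formative markers summed to 136 CPM in Neg ESCs, 119 to 129 in 3xKD ESCs, 1990 to 2290 in Neg EpiLCs and 957 to 980 in 3xKD EpiLCs, with 5 of 6 called lower in the last comparison. Their part in the collagen differences between the lines was not tested. The 3 guide targets were lower in 3xKD in both states, with log2 fold changes between -0.89 and -1.14. Library totals ranged from 11221023 to 19652197 counts. The study describes its experiments as done in biological replicates, while the labels do not say how the 3 libraries of a group were cultured, and p-values measure the spread between these libraries.

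Collagens are extracellular proteins made of 3 chains wound into a triple helix, and each chain has its own gene. Fibrillar collagens form the fibres of connective tissue, type IV collagens form the sheet-like network of basement membranes, and fibril-associated collagens with interrupted triple helices (FACITs) decorate fibres. Others form beaded filaments, sit in the cell membrane or, as multiplexins, bridge basement membranes and the tissue under them. Around implantation the epiblast rests on a basement membrane rich in type IV collagen and laminin, much of it laid down by the neighbouring endoderm.

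Several of the genes described below are neighbours on a chromosome, and promoters of such neighbours are shown. The part of their position in the results was not tested. Col4a1 and Col4a2, whose chains assemble into 1 trimer, lie head to head on chromosome 8 (GRCm39 11248423 to 11362826 on the minus strand and 11362471 to 11499287 on the plus strand) and their annotated bounds overlap by 356 bases. Windows from 250 bases before to 50 after each RefSeq start site, in the older build GRCm38.p6 and written 5′ to 3′ on the strand of the gene, are chr8:11312777-11313076 for Col4a1 and chr8:11312555-11312854 for Col4a2, and 78 bases belong to both. Capitals mark the GC box letters GGGCGG, the CCAAT box letters CCAAT and the letters ACGTG, a form of the core of the hypoxia response element. Each was searched on both strands. The other form of that core, GCGTG, was neither searched nor marked, so a window without ACGTG may still hold it.
Col4a1: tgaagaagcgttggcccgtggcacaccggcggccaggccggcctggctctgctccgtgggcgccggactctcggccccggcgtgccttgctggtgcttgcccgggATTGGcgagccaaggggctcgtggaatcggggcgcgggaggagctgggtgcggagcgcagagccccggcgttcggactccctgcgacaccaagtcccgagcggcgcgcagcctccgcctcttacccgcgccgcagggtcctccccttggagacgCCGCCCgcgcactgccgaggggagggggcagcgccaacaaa
Col4a2: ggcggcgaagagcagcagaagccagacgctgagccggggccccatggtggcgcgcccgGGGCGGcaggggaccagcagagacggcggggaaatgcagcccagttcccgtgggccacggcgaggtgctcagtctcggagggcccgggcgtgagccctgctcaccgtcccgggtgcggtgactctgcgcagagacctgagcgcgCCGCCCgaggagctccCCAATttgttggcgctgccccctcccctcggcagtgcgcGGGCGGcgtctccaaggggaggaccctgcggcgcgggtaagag
The Col4a1 window holds 1 GC box and 1 CCAAT box, the Col4a2 window 3 and 1, and the letters ACGTG are in neither. The GC box of the Col4a1 window lies in the shared bases and is also 1 of the 3 in the Col4a2 window. Over all 32544 distinct windows of this length, 35.9% hold a GC box, 37.4% a CCAAT box and 19.7% the letters ACGTG, and among 38 windows of 35 collagen genes 23, 13 and 5 do. Both windows are rich in G and C, at 74.0% and 73.7% against a median of 53.0% over all windows.

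Col6a6, Col6a5 and Col6a4 lie in tandem on the minus strand of chromosome 9 (GRCm39 105564724 to 105705561, 105733270 to 105837858 and 105866653 to 105973990), with gaps of 27708 and 28794 bases between them. Each encodes an alternative for the third chain of type VI collagen, the beaded filament that links cells to the matrix around them. Their windows are shown because all 3 rise in EpiLCs. They lie at chr9:105828036-105828335, chr9:105960594-105960893 and chr9:106096642-106096941 in GRCm38.p6, with the same letters in capitals.
Col6a6: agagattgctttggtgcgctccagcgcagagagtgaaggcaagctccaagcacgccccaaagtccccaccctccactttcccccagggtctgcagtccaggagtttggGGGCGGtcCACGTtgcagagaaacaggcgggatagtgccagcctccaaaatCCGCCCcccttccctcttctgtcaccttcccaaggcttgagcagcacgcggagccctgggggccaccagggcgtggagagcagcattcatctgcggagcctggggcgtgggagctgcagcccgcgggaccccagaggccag
Col6a5: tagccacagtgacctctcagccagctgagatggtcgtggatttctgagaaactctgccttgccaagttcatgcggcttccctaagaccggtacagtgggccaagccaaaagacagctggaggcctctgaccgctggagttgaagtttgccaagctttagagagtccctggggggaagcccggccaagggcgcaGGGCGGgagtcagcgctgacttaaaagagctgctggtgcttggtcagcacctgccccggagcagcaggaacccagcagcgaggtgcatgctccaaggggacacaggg
Col6a4: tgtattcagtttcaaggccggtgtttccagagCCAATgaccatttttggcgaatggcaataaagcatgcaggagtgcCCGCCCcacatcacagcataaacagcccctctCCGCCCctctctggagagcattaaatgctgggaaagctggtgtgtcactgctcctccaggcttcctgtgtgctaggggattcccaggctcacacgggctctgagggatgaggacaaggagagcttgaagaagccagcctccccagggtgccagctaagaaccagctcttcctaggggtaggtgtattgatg
The Col6a6 window holds 2 GC boxes and the letters ACGTG once, the Col6a5 window 1 GC box, and the Col6a4 window 2 GC boxes and 1 CCAAT box. A match is a description of the letters and not of a bound factor.

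Levels were low for most of the family. Of the 34 genes, 21 stayed under 3 CPM in every group and 8 reached 10 CPM in any. Per length, in TPM (transcripts scaled for their length and for library size) summed over the transcripts of a gene, the family summed to 14.4 to 18.4 TPM in Neg ESCs, 26.6 to 29.1 in 3xKD ESCs, 47.7 to 54.4 in Neg EpiLCs and 45.5 to 65.5 in 3xKD EpiLCs. Col18a1, a multiplexin of basement membranes whose end fragment is endostatin, held 14.4% to 21.5% of that sum in the ESC libraries and 44.2% to 53.7% in the EpiLC libraries. In normalized counts the family summed to 90.2 to 96.1 CPM in Neg ESCs, 141 to 147 in 3xKD ESCs, 240 to 241 in Neg EpiLCs and 267 to 280 in 3xKD EpiLCs, so that the groups did not overlap on this scale. In bulk RNA, fewer cells that express a gene and less RNA per cell cannot be told apart.

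The first question was whether collagen genes differed between the 3xKD and Neg lines in ESCs. In 3xKD ESCs 6 collagen genes were higher than in Neg ESCs and none was lower. They are Col26a1, Col4a1, Col4a2, Col9a2, Col5a1 and Col6a2, and their folds lay between 1.65 and 6.34. A gene is called where edgeR's quasi-likelihood test, fitted over all genes and 12 libraries, gives a Benjamini-Hochberg adjusted p under 0.01 and the log2 fold change is beyond 0.58 in size, as the study's methods set it. The 6 are 14.0% of the 43 tested members, where 8.5% of all tested genes were called higher and 6.76% lower. In either direction the members' 14.0% is near the 15.3% of all genes. The median log2 fold change was 0.46 over the 43 members and 0.026 over all tested genes, and 31 of the 43 values were above 0. Beside the count of 0 lower, 16 of the 43 members had an unadjusted p under 0.05 in either direction, where 45.9% of all genes did, and DESeq2 also gave 0 lower.

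In EpiLCs, the same question gave 7 collagen genes higher in 3xKD, Col26a1, Col6a2, Col13a1, Col5a3, Col5a1, Col4a1 and Col9a2, and 1 lower, Col11a2. These are 16.3% and 2.33% of the tested members, against 7.88% and 5.35% of all tested genes, and in either direction 18.6% against 13.2%. The median was 0.49 over the members and 0.032 over all genes, with 30 of 43 values above 0. Col26a1, Col4a1, Col5a1, Col6a2 and Col9a2 were called higher in both states, 5 of the 6 calls in ESCs and 5 of the 7 in EpiLCs. Libraries of the lines that do not overlap are common in these data. In ESCs 12 members had all 3xKD libraries above all Neg libraries and 2 below, where 25.2% and 23.8% of all genes did, 49% in either direction. In EpiLCs 17 members lay above and 5 below, against 24.1% and 23.1% of all genes, 47.2% in either direction. The plot of fold changes by class shows that most values in both states lie right of 0 while most of their genes are not called.

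**Figure D1:**
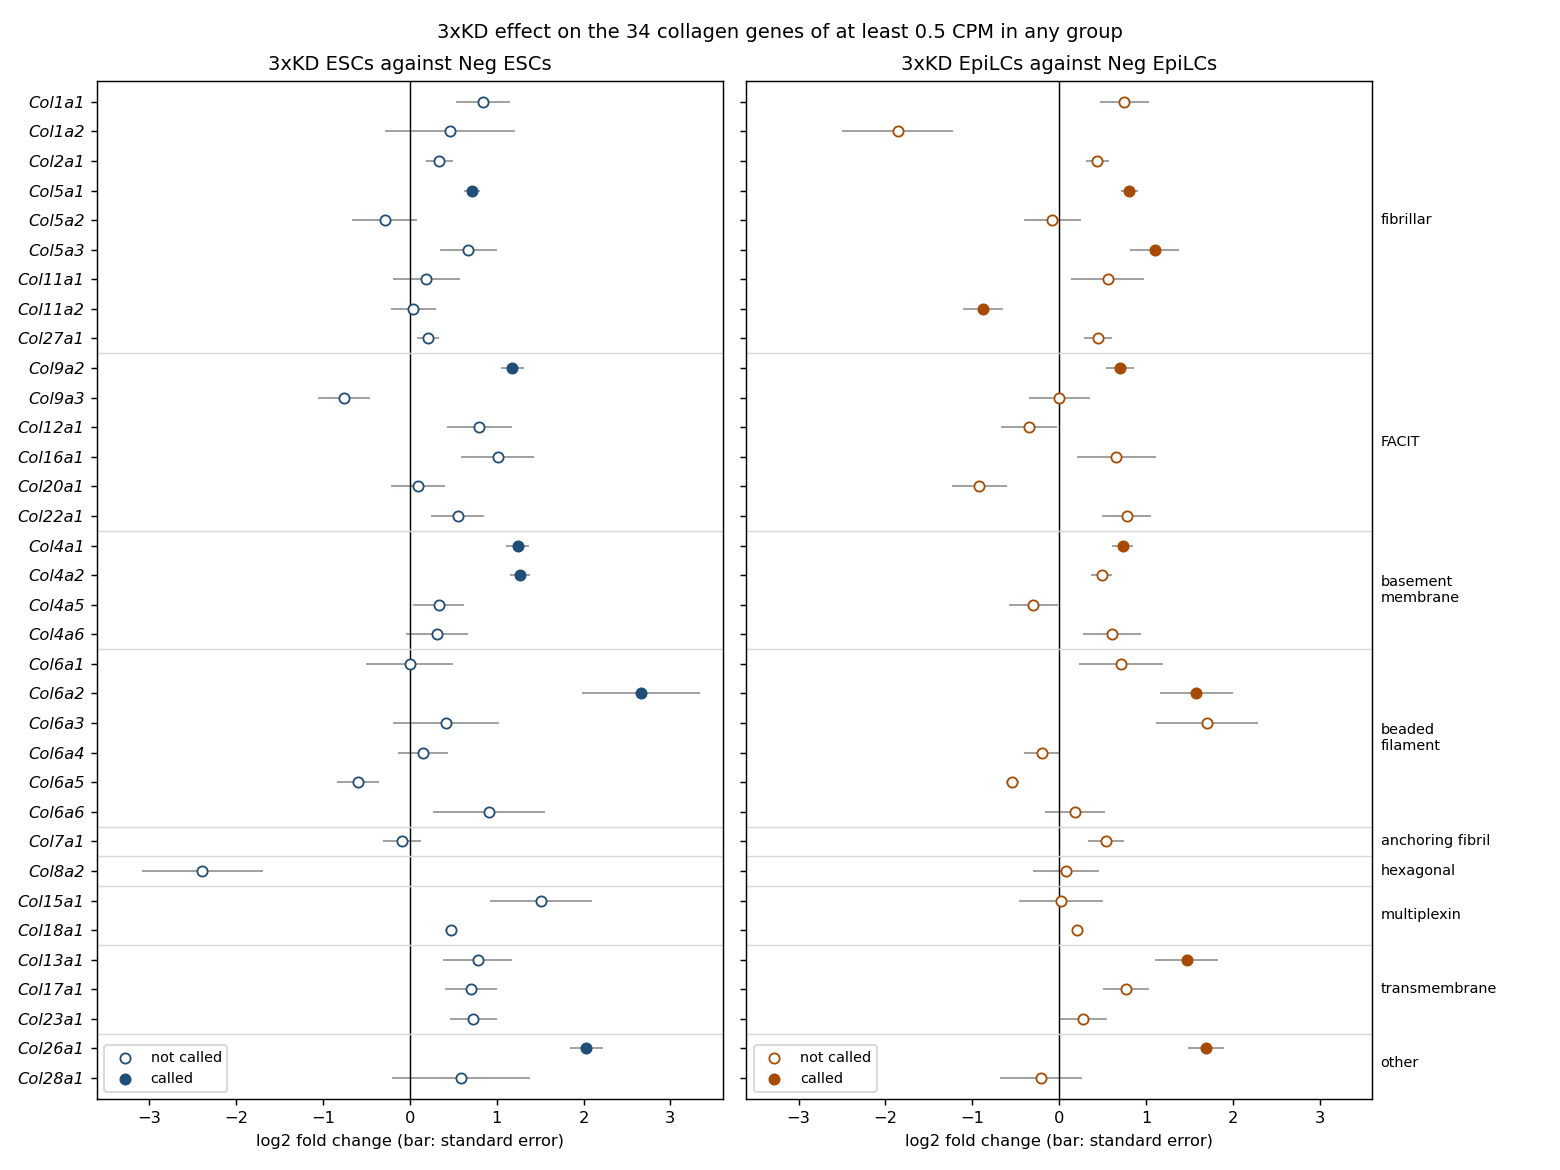
The log2 fold change of 3xKD against Neg (horizontal axis, bars are standard errors) for the 34 collagen genes of at least 0.5 CPM in any group, in ESCs (left) and EpiLCs (right), ordered by class. Filled points are called, 6 to the right in ESCs and, in EpiLCs, 7 to the right and 1 to the left, and Col8a2 in ESCs stands furthest to the left without a call.

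The type IV chains of basement membranes include the 1 collagen gene whose 3xKD effect was called different between the states. Col4a1 read 4.96, 3.92 and 4.18 CPM in Neg ESCs, 10.1, 10 and 10.5 in 3xKD ESCs, 5.36, 7.11 and 7.46 in Neg EpiLCs and 11.3, 10.6 and 11.2 in 3xKD EpiLCs. Every 3xKD library of either state was above every Neg library of both states. Col4a1 rose in 3xKD by 1.24 in ESCs (standard error 0.129, adjusted p = 7e-07 from edgeR) and by 0.73 in EpiLCs (standard error 0.121, adjusted p = 0.00011) on the log2 scale.

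Col4a2 read 4.52, 4.13 and 4.69 CPM in Neg ESCs, 10, 11.8 and 10.5 in 3xKD ESCs, 4.62, 4.09 and 4.36 in Neg EpiLCs and 5.71, 5.88 and 6.74 in 3xKD EpiLCs. The 3xKD libraries were above the Neg libraries of the same state in both states, and the 3xKD ESC libraries stood apart from all others. Its rise in ESCs was 1.27 (standard error 0.119, adjusted p = 2e-07 from edgeR). In EpiLCs its log2 fold change was 0.49 (standard error 0.123, adjusted p = 0.0044 from edgeR), which is under the fold limit. The difference of the 3xKD effect between the states was tested itself, and Col4a2 was the 1 collagen gene called, at -0.79 (standard error 0.171, adjusted p = 0.004 from edgeR). Of all tested genes 10% were called for this difference, 4.76% higher and 5.27% lower. The call was lost without Neg ESCs replicate 2, 3xKD ESCs replicate 2 or 3xKD EpiLCs replicate 1 or 2, where the difference lay between -0.72 and -0.76 (adjusted p = 0.0118 to 0.0128 from edgeR), and with DESeq2.

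The count ratio of Col4a1 to Col4a2 was 1.1, 0.95 and 0.893 in the Neg ESC libraries, 1.01, 0.85 and 0.994 in 3xKD ESCs, 1.16, 1.74 and 1.71 in Neg EpiLCs and 1.98, 1.80 and 1.67 in 3xKD EpiLCs. The ratios of all 6 EpiLC libraries were above those of all 6 ESC libraries, although 1.16 in Neg EpiLCs replicate 1 lay close to 1.1 in Neg ESCs replicate 1. These counts are not corrected for length. The average transcript length of Col4a1 was 2830, 4092, 5891 and 5045 bases in Neg ESCs, 3xKD ESCs, Neg EpiLCs and 3xKD EpiLCs. Per length, mean TPM of Col4a1 and Col4a2 were 1.1 and 0.446, 1.47 and 1.01, 0.878 and 0.526, and 1.48 and 0.734 in the same order, without a split by state. Between the lines the ratios overlapped in both states. Col4a5 and Col4a6, the other head-to-head pair of this class above the limit, lie 1281 bases apart on the X chromosome and stayed between 0.586 and 1.56 CPM in all group means. Neither was called in any comparison.

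**Figure D2:**
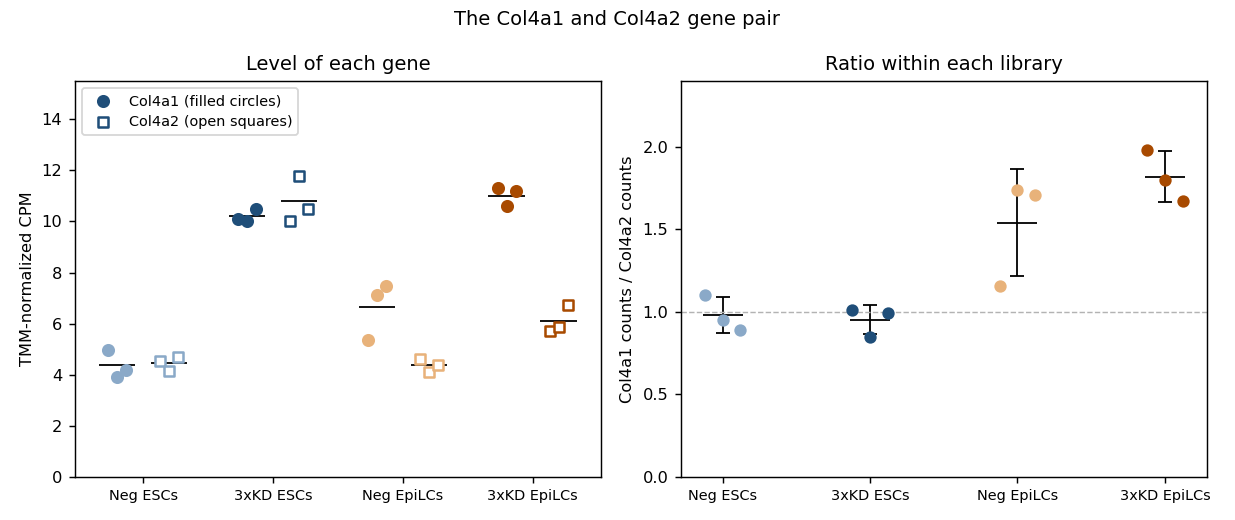
Left, TMM-normalized CPM of Col4a1 (filled circles) and Col4a2 (open squares) in each library, with lines at the group means. Right, the ratio of their counts in each library with the mean and SD of 3 libraries, which lies between 0.952 and 0.981 in the ESC groups and between 1.54 and 1.82 in the EpiLC groups. The ratio is not corrected for transcript length, and mean TPM of the groups did not split by state in this way.

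Among the fibrillar genes, Col5a1, the main chain of type V collagen, which sets the width of fibres, had the most counts in ESCs. It read 15.0, 14.7 and 15.3 CPM in Neg ESCs, 27.3, 22.8 and 24.2 in 3xKD ESCs, 6.96, 8.99 and 7.59 in Neg EpiLCs and 13.2, 14.8 and 13.4 in 3xKD EpiLCs. The lines did not overlap within a state. Col5a1 rose in 3xKD by 0.72 in ESCs (standard error 0.0914, adjusted p = 6.2e-06 from edgeR) and by 0.81 in EpiLCs (standard error 0.101, adjusted p = 5.5e-06).

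Col5a3, another chain of type V collagen, read 0.801, 0.738 and 0.822 CPM in Neg EpiLCs and 1.55, 1.85 and 1.69 in 3xKD EpiLCs. In ESCs it read 0.355, 0.551 and 0.51 in Neg and 0.614, 0.976 and 0.719 in 3xKD. The lines did not overlap in either state, and the rise of 1.1 in EpiLCs was called (standard error 0.279, adjusted p = 0.0045 from edgeR) while the value of 0.67 in ESCs was not. Leaving out any 1 of 5 of the 6 EpiLC libraries ended the call, with adjusted p = 0.0131 to 0.0199. DESeq2 did not call it either (adjusted p = 0.0376 from DESeq2). Col5a2, the partner chain of Col5a1, stood between 0.604 and 1.17 CPM and was not called in any comparison.

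Col11a2, a minor fibrillar chain of cartilage, was the member called lower in 3xKD EpiLCs. It read 3.20, 2.75 and 3.67 CPM in Neg EpiLCs and 1.55, 1.85 and 1.81 in 3xKD EpiLCs, which puts the latter within the range of 1.04 to 1.84 of the ESC libraries but for 1 library at 1.85. The log2 fold change was -0.88 (standard error 0.229, adjusted p = 0.0054 from edgeR), and 5 of the 6 EpiLC libraries ended the call when left out. Col2a1, the main fibrillar collagen of cartilage, and Col27a1, another fibrillar chain, were not called for the lines. Col2a1 read 9.85, 11.3 and 11.4 CPM in Neg EpiLCs and 14.6, 14.8 and 14.9 in 3xKD EpiLCs, without overlap (0.44, adjusted p = 0.013 from edgeR).

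Of the type I chains, Col1a1 stood at 0.814 ± 0.230 and 1.46 ± 0.104 CPM (SD, n = 3) in Neg and 3xKD ESCs and at 1.24 ± 0.143 and 2.09 ± 0.677 in Neg and 3xKD EpiLCs. Its partner Col1a2 stood between 0.138 and 0.553 CPM, with 6, 9, 26 and 7 counts in Neg ESCs, 3xKD ESCs, Neg EpiLCs and 3xKD EpiLCs. Neither was called in any comparison. Col11a1, the partner of Col11a2, lay between 0.554 and 1.02 CPM and was not called either.

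Col9a2, a chain of the FACIT type IX collagen, read 7, 6.4 and 5 CPM in Neg ESCs, 13.3, 14.6 and 13.3 in 3xKD ESCs, 1.91, 2.55 and 2.53 in Neg EpiLCs and 3.66, 4.03 and 3.62 in 3xKD EpiLCs. The 3xKD libraries were above the Neg libraries of their state, by 1.18 in ESCs (standard error 0.133, adjusted p = 1.7e-06 from edgeR) and by 0.70 in EpiLCs (standard error 0.163, adjusted p = 0.0025). The call in EpiLCs was lost without Neg EpiLCs replicate 1 (0.57, adjusted p = 0.016) or 3xKD EpiLCs replicate 2 (0.65, adjusted p = 0.012). Col9a3, which encodes a chain of the same trimer, went from 3.23 ± 0.732 to 1.93 ± 0.590 CPM (SD, n = 3) in ESCs, which did not pass (-0.76, adjusted p = 0.052 from edgeR). Col9a3 overlaps Tcfl5 on the opposite strand by 535 bases.

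The other FACIT genes were not called between the lines. Among those above 0.5 CPM, Col16a1 had the largest value in ESCs, 1.01 (standard error 0.422, adjusted p = 0.07 from edgeR), at 1.21 ± 0.605 and 2.34 ± 0.797 CPM (SD, n = 3) with overlap of the libraries. Col20a1 in EpiLCs had the lowest, -0.92 (adjusted p = 0.03 from edgeR), and it overlaps the non-coding gene 9230112E08Rik on the same strand by 753 bases. Col12a1 and Col22a1 lay between 0.591 and 3.72 CPM.

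Col26a1, a short collagen with an EMI domain that belongs to none of the main classes, had the largest rise among genes with more than 100 counts in 3xKD ESCs. It read 2.66, 1.58 and 2.24 CPM in Neg ESCs, 9.65, 7.38 and 9.28 in 3xKD ESCs, 1.17, 1.81 and 1.90 in Neg EpiLCs and 5.03, 5.31 and 5.37 in 3xKD EpiLCs. All 6 libraries of 3xKD were above all 6 of Neg. The log2 fold change was 2.03 in ESCs (standard error 0.190, adjusted p = 2.1e-07 from edgeR) and 1.69 in EpiLCs (standard error 0.203, adjusted p = 3.9e-06).

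Col6a2, a chain of every type VI trimer, was called higher in both states from few counts. It read 0.0886, 0 and 0.102 CPM in Neg ESCs, 0.369, 0.488 and 0.523 in 3xKD ESCs, 0.431, 0.738 and 0.379 in Neg EpiLCs and 1.80, 1.92 and 0.937 in 3xKD EpiLCs. The Neg ESC libraries held 3 counts together and the 3xKD ESC libraries 22, a ratio of rates of 6.88 with an exact 95% interval of 2.07 to 35.9 that covers counting error only. The log2 fold change in EpiLCs was 1.58 (standard error 0.421, adjusted p = 0.0063 from edgeR). The call in ESCs was lost without Neg ESCs replicate 1 or 2 or 3xKD ESCs replicate 2 or 3, and that in EpiLCs without Neg EpiLCs replicate 1 or 3 or 3xKD EpiLCs replicate 1 or 2. Both calls were also lost with DESeq2 (adjusted p = 0.0157 in ESCs and 0.0189 in EpiLCs). The call in ESCs was lost with only the groups compared too (adjusted p = 0.0127 from edgeR).

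Its partner chains Col6a1 and Col6a3 stood between 0.474 and 0.774 CPM and between 0.217 and 0.714 CPM and were not called. Col6a5 read 43.6, 43.8 and 42.0 CPM in Neg EpiLCs and 29.8, 30.4 and 28.7 in 3xKD EpiLCs. The lines did not overlap, and a log2 difference of -0.54 (standard error 0.0749, adjusted p = 1.8e-05 from edgeR) passed the p but not the fold limit. Col6a4 and Col6a6, the neighbours of Col6a5 whose windows are printed above, had values of -0.20 and 0.18 in the same comparison (adjusted p = 0.49 and 0.74 from edgeR).

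Among membrane-spanning collagens, Col13a1, found at cell to matrix junctions, read 0.678, 1.01 and 0.948 CPM in Neg EpiLCs and 2.61, 1.66 and 3.06 in 3xKD EpiLCs. The rise of 1.47 (standard error 0.361, adjusted p = 0.0035 from edgeR) was lost without Neg EpiLCs replicate 1 or 3 or 3xKD EpiLCs replicate 1 or 3. In ESCs the libraries overlapped, at 1.15, 0.757 and 0.408 in Neg and 1.04, 0.915 and 1.83 in 3xKD. Col17a1, a collagen of hemidesmosomes, and Col23a1 had values between 0.28 and 0.77 in the 2 states and were not called.

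The multiplexin Col18a1 passed the p limit in both states with small folds. It read 21.4, 19.4 and 19.7 CPM in Neg ESCs, 28.9, 29.6 and 24.8 in 3xKD ESCs, 128, 118 and 121 in Neg EpiLCs and 143, 136 and 145 in 3xKD EpiLCs. The lines did not overlap in either state, by 0.47 in ESCs (standard error 0.0671, adjusted p = 2.3e-05 from edgeR) and 0.21 in EpiLCs (standard error 0.0525, adjusted p = 0.0042). Col15a1, the other multiplexin, lay between 0.208 and 0.667 CPM. Col7a1, the anchoring fibril collagen of skin, lay between 1.69 and 2.7 CPM and was not called.

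Col8a2, a short-chain network collagen, had the lowest value in ESCs at -2.39 (adjusted p = 0.011 from edgeR), from 16 counts in Neg and 3 in 3xKD. The ratio of rates was 0.176 with an exact 95% interval of 0.0328 to 0.614. It was called lower without 3xKD ESCs replicate 2.

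**Figure D3:**
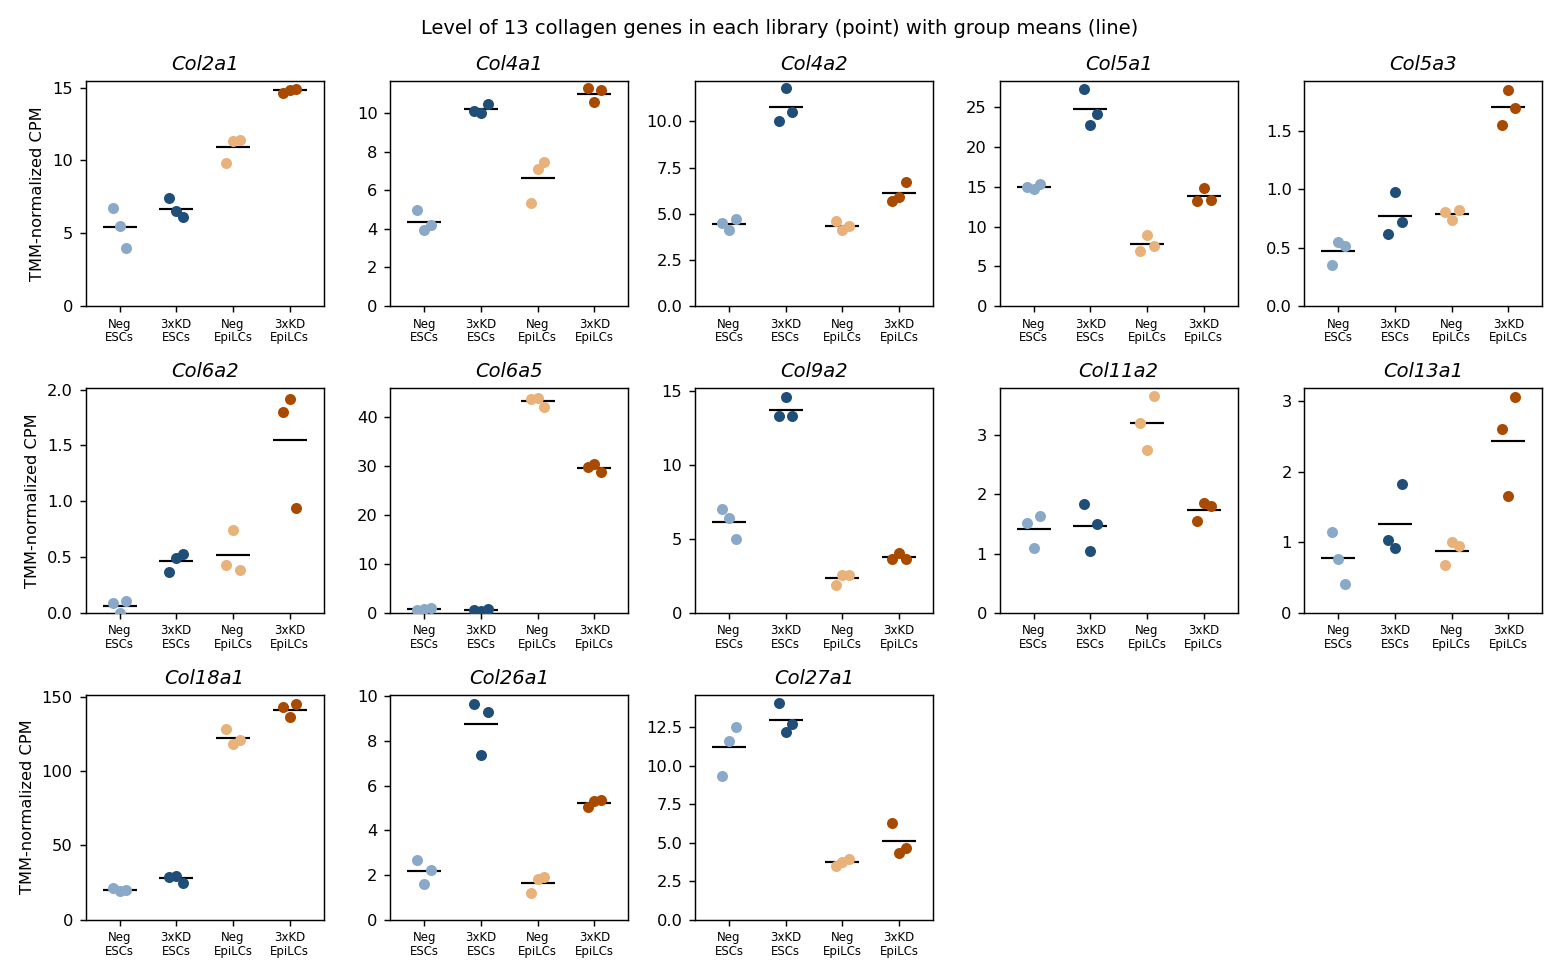
TMM-normalized CPM (vertical axis, from 0) of the 13 collagen genes called between the lines, called for the difference between states or reaching 10 CPM, by group, with 1 point per library and a line at the group mean. Col26a1 and Col5a1 show 3xKD above Neg in both states, whereas Col6a5 and Col18a1 differ mainly between ESCs and EpiLCs.

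These calls depend on how the length of transcripts is handled. The tests used counts summed per gene. With offsets for the average transcript length of a gene, which the study's own import step supplies, Col26a1 kept its direction but not its call (2.16, adjusted p = 0.0188 in ESCs and 2.04, adjusted p = 0.0354 in EpiLCs, edgeR), and so did Col5a1 (0.87 and 0.91) and Col4a1 (0.55 and 0.92). In ESCs Col9a2, Col4a2 and Col6a2 stayed called and Col18a1 gained a call (0.82, adjusted p = 0.00253), where 1589 of all 25446 tested genes were higher. In EpiLCs the 2 genes called higher were Col5a3 and Col4a2, where 1330 of all 25446 tested genes were higher. The average length of Col26a1 ranged from 485 to 1892 bases among the 3 Neg ESC libraries and that of Col4a1 from 1558 to 4294. For Col26a1 a transcript of 3 exons without a defined coding sequence held a mean of 1.07 counts but 46.8% of the gene's TPM in Neg ESCs.

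Other cell types were looked for with marker lists, because collagens are abundant in endoderm and mesenchyme. The 10 primitive and parietal endoderm markers summed to 23.4 to 26.5 CPM in Neg ESCs, 33.1 to 35.9 in 3xKD ESCs, 32.5 to 37.7 in Neg EpiLCs and 27.2 to 29.3 in 3xKD EpiLCs. Of them, Gata6 and Dab2 were called higher in 3xKD ESCs, and Gata6, Sox7 and Cubn lower in 3xKD EpiLCs. The 9 fibroblast or mesenchyme markers summed to 12.2 to 14.7, 34 to 36.4, 9.99 to 12.3 and 19.0 to 21.3 CPM in the same order. In this list 3 genes reached 1 CPM, namely Pdgfrb, Thy1 and Twist1, all called higher in 3xKD ESCs, and Pdgfrb and Thy1 also in 3xKD EpiLCs. Pdgfrb rose from 7.16 to 23.7 CPM in the ESC group means. The other 6 genes of the list, Dcn, Lum, Postn, Twist2, Prrx1 and Fap, had group means of at most 0.355 CPM in both lines. The 7 trophoblast markers summed to 48.7 to 51.1 CPM in Neg ESCs, 36 to 39.5 in 3xKD ESCs, 24.5 to 25.8 in Neg EpiLCs and 27 to 30.3 in 3xKD EpiLCs, with 1 gene called higher and 2 lower in 3xKD in each state. The part of the genes of these lists in the collagen result was not tested.

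The second question was how the family changed on the way from ESCs to EpiLCs. In Neg cells the calls were 11 collagen genes higher and 4 lower after the transition, 25.6% and 9.3% of the tested members against 9.78% and 11% of all tested genes. In 3xKD cells 10 were higher and 5 lower, 23.3% and 11.6% against 9.42% and 9.32%. In either direction 34.9% of the members were called in each line, against 20.8% of all genes in Neg and 18.7% in 3xKD. All EpiLC libraries lay above all ESC libraries for 19 members and below for 5 in Neg, against 26.2% and 25.5% of all genes, 51.7% in either direction. In 3xKD they did so for 20 and 5, against 25.9% and 25.7%, also 51.7% in either direction. The medians were 0.62 and 0.67 over the members and 0.011 over all genes in both lines. Col18a1, Col2a1, Col28a1, Col8a2, Col6a2, Col6a4, Col6a5 and Col6a6 were higher in both lines, 8 of the 11 and of the 10, and Col27a1, Col5a1 and Col9a2 were lower in both, 3 of the 4 and of the 5.

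Col6a5 had the largest log2 increase in both lines. It read 0.62, 0.826 and 1.02 CPM in Neg ESCs and 0.491, 0.427 and 0.784 in 3xKD ESCs, against 42.0 to 43.8 and 28.7 to 30.4 in the EpiLCs of the 2 lines. It rose by 5.64 in Neg (standard error 0.122, adjusted p = 7e-16 from edgeR) and by 5.70 in 3xKD (standard error 0.132, adjusted p = 3.1e-15) on the log2 scale. Its neighbours Col6a4 and Col6a6 rose by 2.41 and 3.45 in Neg and by 2.06 and 2.72 in 3xKD. Col6a4 went from 1.41 ± 0.498 to 7.2 ± 0.126 CPM and Col6a6 from 0.131 ± 0.128 to 1.74 ± 0.397 CPM (SD, n = 3) in Neg cells. The 3 genes of the tandem rose in both lines. Of the other genes of the class, Col6a2 also rose in both, by 2.82 in Neg and 1.74 in 3xKD, and Col6a1 and Col6a3 were not called. Of the Col6a5 counts in Neg EpiLCs, a mean of 595 fell on the transcript of 41 exons and 80.6 on a short one with a retained intron.

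Col18a1 rose by 2.61 in Neg (standard error 0.0618, adjusted p = 2.4e-15 from edgeR) and by 2.35 in 3xKD (standard error 0.0588, adjusted p = 7.8e-15). The 6 EpiLC libraries were at least 118 CPM and the 6 ESC libraries at most 29.6 CPM. Slc19a1, a folate carrier on the opposite strand that overlaps Col18a1 by 8825 bases, stood between 17.7 and 23.5 CPM in all group means. Col2a1 rose by 1.04 and 1.14, from 6.74, 5.51 and 3.98 CPM in Neg ESCs and 7.43, 6.52 and 6.08 in 3xKD ESCs.

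Col28a1, which resembles beaded-filament collagens, rose by 2.88 in Neg from 5 to 40 counts, and its call in 3xKD was lost without several of the libraries. Col8a2 rose by 1.62 in Neg, and in 3xKD the ratio of rates was 19.6 with an exact 95% interval of 6.37 to 97.7, from 3 to 57 counts. In Neg alone Col11a2, Col12a1 and Col4a1 were called higher, by 1.17, 1.4 and 0.62, and in 3xKD alone Col5a3 and Col24a1, the latter on 38 counts in all libraries. For none of these was the difference between the lines called. The calls of Col12a1, of Col8a2 in Neg and of Col24a1 were each lost without any 1 of at least 4 libraries. Col4a1 fell below the fold limit without Neg ESCs replicate 2 or Neg EpiLCs replicate 3 (0.55 and 0.53), and with offsets for transcript length its direction turned, to -0.56 (adjusted p = 0.191 from edgeR). The same offsets ended the Neg calls of Col11a2, Col12a1 and Col8a2 (adjusted p = 0.142, 0.0798 and 0.588 from edgeR). In 3xKD they ended those of Col24a1 and Col28a1 (adjusted p = 0.0306 and 0.0205 from edgeR).

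Among the genes that decreased, Col27a1 had the largest fall in Neg. It read 9.31, 11.6 and 12.5 CPM in Neg ESCs, 14.1, 12.2 and 12.7 in 3xKD ESCs, 3.51, 3.76 and 3.92 in Neg EpiLCs and 6.27, 4.35 and 4.68 in 3xKD EpiLCs, without overlap of the states. It fell by 1.59 in Neg (standard error 0.148, adjusted p = 1.1e-07 from edgeR) and by 1.35 in 3xKD (standard error 0.140, adjusted p = 5.4e-07). Col9a2 fell by 1.38 and 1.86, and Col5a1 by 0.94 and 0.84. Col9a3 was called lower in Neg (-1.55) and Col4a2 and Col26a1 in 3xKD (-0.82 and -0.74). With offsets for transcript length Col27a1 alone stayed called lower in Neg, and Col27a1, Col4a2 and Col9a2 in 3xKD. In Neg the calls of Col9a2, Col5a1 and Col9a3 were lost (-0.89, -0.90 and -1.68, adjusted p = 0.0539, 0.0109 and 0.0105 from edgeR). In 3xKD those of Col5a1 and Col26a1 were lost (-0.85 and -1.20, adjusted p = 0.013 and 0.142 from edgeR).

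**Figure D4:**
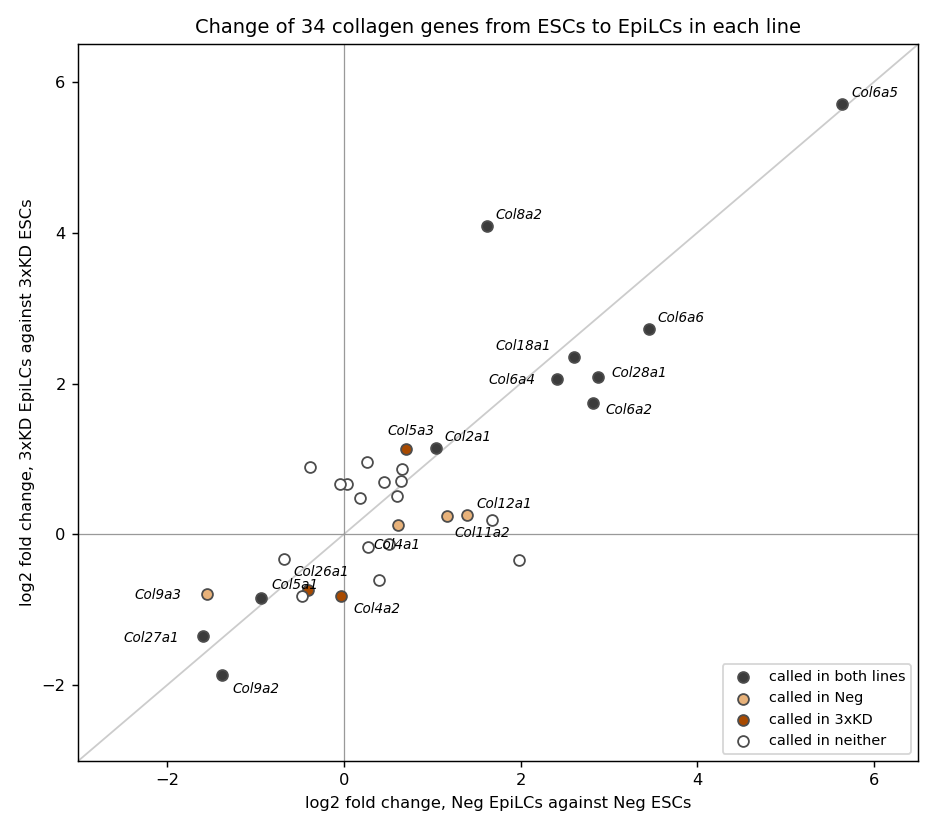
The log2 fold change from ESCs to EpiLCs in 3xKD cells (vertical axis) against that in Neg cells (horizontal axis) for the 34 collagen genes, coloured by the line in which the gene was called, with a line where both are equal. Col6a5 lies furthest out at 5.64 and 5.70, and Col4a2 lies near 0 in Neg and at -0.82 in 3xKD.

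Genes that make, process, bind or break down collagen were counted by lists. Of 66 listed genes 62 were tested, and 25 were higher and 2 lower in 3xKD ESCs than in Neg ESCs, 40.3% and 3.23% against 8.5% and 6.76% of all tested genes. In EpiLCs 17 were higher and 1 lower, 27.4% and 1.61% against 7.88% and 5.35%. These shares were not matched for level. The calls of these lists were not checked with DESeq2, with transcript-length offsets or with a library left out. Of all genes 25446 were tested and 18556 had a mean of at least 0.5 CPM in any group, and genes at low levels are harder to call. The median log2 fold changes were 0.52 and 0.395. The difference between the states was called for 13 of the 62 (21%), 5 higher and 8 lower, against 10% of all tested genes, 4.76% higher and 5.27% lower.

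Of 14 genes that modify prolines and lysines of the chains, 5 were called higher in 3xKD ESCs and 3 in EpiLCs, and none was called lower. Crtap, a partner of prolyl 3-hydroxylase, was lower in all 3xKD libraries of both states but under the fold limit (-0.33 and -0.29, adjusted p = 0.00098 and 0.0061 from edgeR). P4ha1, a catalytic subunit of prolyl 4-hydroxylase, went from 64.8, 63.3 and 58.4 CPM in Neg ESCs to 152, 151 and 155 in 3xKD ESCs and from 58.0, 58.3 and 60.0 to 130, 120 and 125 in EpiLCs. It rose by 1.30 and 1.09 (adjusted p = 1.9e-12 and 1.7e-11 from edgeR). P3h2, a prolyl 3-hydroxylase, rose by 1.62 in ESCs, from 0.358 ± 0.0536 to 1.11 ± 0.567 CPM (SD, n = 3). Plod1, a lysyl hydroxylase, rose by 0.66 in ESCs and by 1.15 in EpiLCs, and this difference was called (0.49, adjusted p = 0.0027 from edgeR). Plod2, another lysyl hydroxylase, went the other way, with 0.67 in ESCs and 0.08 in EpiLCs (difference -0.59, adjusted p = 1.4e-06 from edgeR). P3h4 rose by 0.67 in ESCs and P3h3 by 0.76 in EpiLCs.

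Of 12 genes for folding and export, 4 rose and 1 fell in ESCs and 2 rose in EpiLCs. Serpinh1, the collagen chaperone HSP47, went from 31.5 ± 2.10 to 72.5 ± 2.80 CPM in ESCs and from 33.3 ± 2.93 to 80.3 ± 1.26 CPM in EpiLCs (SD, n = 3), a rise of 1.2 and 1.27. Fkbp10 and Fkbp7, prolyl isomerases of the endoplasmic reticulum, rose by 1.09 and 1.75 in ESCs, and Tmem38b, an ion channel of the same compartment, by 0.80 in EpiLCs. Mia2, which helps to export large cargo, fell by 0.62 in ESCs.

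Propeptide processing had 8 tested genes, of which 4 rose in each state. Adamts2 and Adamts14, proteases that remove the first propeptide, rose by 1.64 and 0.98 in ESCs and by 1.12 and 1.00 in EpiLCs, and Pcolce, an enhancer of the protease that removes the last one, by 0.86 and 1.00. Tll1, a protease related to Bmp1, fell by 1.21 in EpiLCs, where its value in ESCs was 0.68, and the difference was called (-1.89, adjusted p = 0.0044 from edgeR). Of 7 cross-linking and assembly genes, Loxl2, a lysyl oxidase, and Pxdn, a peroxidase that cross-links type IV collagen, rose by 1.28 and 1.51 in ESCs. In EpiLCs Loxl2 rose by 0.74 and Pxdn had 0.47, and the differences of -0.54 and -1.04 were called (adjusted p = 7.2e-05 and 2.8e-06 from edgeR).

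Of 7 tested collagen receptors, Mrc2, an endocytic receptor, Ddr1 and Itgb1 rose in ESCs by 1.96, 0.99 and 0.75 and Ddr2 fell by 1.02. In EpiLCs Itgb1 and Mrc2 rose by 0.73 and 0.64. Of 9 tested genes for breakdown and its inhibitors, 5 rose in ESCs, led by the proteases Mmp9 and Mmp2 (1.43 and 1.14) and the inhibitor Timp3 (1.08), and 3 rose in EpiLCs, Timp2, Mmp15 and Mmp2 (0.97, 0.92 and 0.59). Of 5 tested genes of proline synthesis and breakdown, the synthesis genes Pycr1 and Aldh18a1 rose by 1.00 and 0.97 in ESCs and by 1.35 and 0.86 in EpiLCs.

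**Figure D5:**
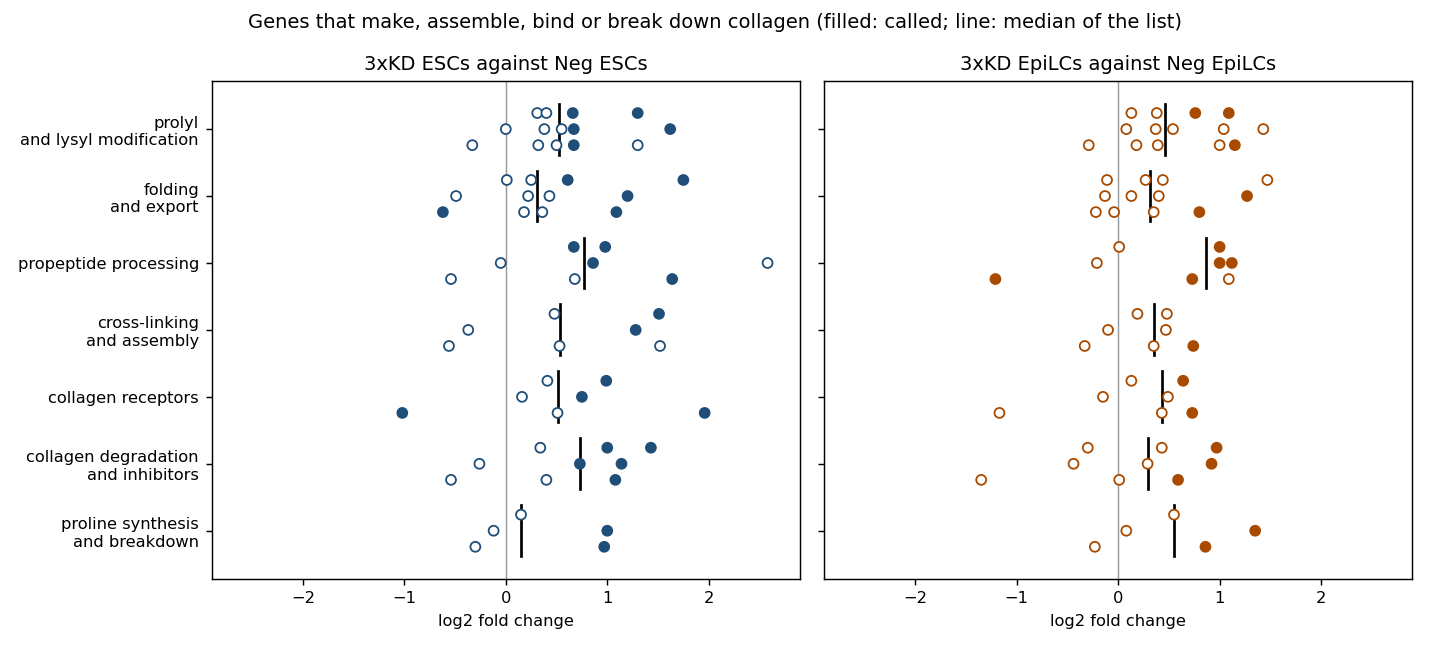
The log2 fold change of 3xKD against Neg (horizontal axis) for the 62 tested genes of 7 collagen pathway lists in ESCs (left) and EpiLCs (right), with 1 point per gene, filled where called, and a line at the median of each list. Medians lie between 0.15 and 0.77 in ESCs and between 0.29 and 0.86 in EpiLCs.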

How the data were processed

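RNA of 12 libraries, 3 each of Neg ESCs, 3xKD ESCs, Neg EpiLCs and 3xKD EpiLCs, had been sequenced by the authors after ribosomal RNA depletion and directional library preparation, per the labels' extract protocol, although the labels' molecule field reads polyA RNA. Per the study's methods and the submitters' processing notes, reads were processed with nf-core/rnaseq 3.14.0, with Trim Galore 0.6.7, STAR 2.7.9a and Salmon 1.10.1, on GRCm39 with Ensembl release 111. The deposited tables give, per transcript, estimated counts, which Salmon divides among transcripts and which need not be whole. The same deposited tables give TPM, scaled by the authors' run of Salmon for transcript length and library size.

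Estimated counts were summed per gene with the deposited transcript table and rounded. Genes with at least 10 counts over all libraries (25446) were tested with the quasi-likelihood test of edgeR 4.0.16 (R 4.3.3) after TMM scaling, in 1 fit of the 4 groups, with Benjamini-Hochberg adjustment over all tested genes. A call needed adjusted p under 0.01 with a log2 fold change beyond 0.58 in size, and for the difference between states adjusted p under 0.01. TPM were summed per gene and used only for levels. Intervals of ratios of counts at or under 3 counts are exact at 95% and cover counting error only. The steps were tested on simulated data, with changes placed in genes of at least 1 CPM. Changes of genes at lower levels and differences in transcript length were not simulated. Gene positions come from GENCODE vM39 (GRCm39) and promoter windows from RefSeq (GRCm38.p6), where 35 members had a window.

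Genes are named where called, where reaching 10 CPM, or as the 3 largest called changes of a pathway list in a state, and other members by range. The members and lists were chosen with earlier results of these data known. Alternatives were DESeq2 1.42.0 (the study itself tested with DESeq2), other filters and thresholds, transcript-length offsets, a replicate block, only the groups compared, and each library left out. They were read for the collagen genes and for counts over all genes, not for the pathway or marker lists. Replicate numbers were checked for pairing and share only a number.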

Additional observations from a re-analysis of the deposited data

Results flagged for a closer look

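The 3xKD effect on Col4a2 differed between the states by a test of the difference itself, at -0.79 on the log2 scale (standard error 0.171, adjusted p = 0.004 from edgeR), with 1.27 in ESCs and 0.49 in EpiLCs. Over its alternatives the adjusted p reached 0.0833, with transcript-length offsets. Its cause was not tested.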

How the results depend on the processing

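With transcript-length offsets the genes called higher were 2 in 3xKD against Neg EpiLCs and 7 from ESCs to EpiLCs in Neg, those called lower were 0 in 3xKD against Neg EpiLCs, 1 from ESCs to EpiLCs in Neg and 3 in 3xKD, and 0 were called for the difference between states. Of all 25446 tested genes, 1330 were then higher and 1025 lower in 3xKD against Neg EpiLCs. The 2 of 43 members are no larger a share than that of all genes. From ESCs to EpiLCs 2116 were higher and 2130 lower in Neg and 1835 lower in 3xKD. For the difference 337 were higher and 394 lower. Col4a1 reversed to -0.56 in the Neg transition under the same offsets. DESeq2 gave 0 lower in EpiLCs and 0 for the difference. Over all genes it gave 1220 lower in EpiLCs and, for the difference, 1140 higher and 1236 lower. At adjusted p under 0.05 with no fold limit, 1 gene was lower in ESCs, 17 higher and 4 lower in EpiLCs, and 3 differed between states. At 0.01 with no fold limit, 2 were lower in EpiLCs. All genes were not counted without a fold limit, so these counts have no share to compare with. With filterByExpr or with no filter, 1 gene, Col8a2, was lower in ESCs, against 1747 of 17509 and 1892 of 39915 genes tested. The cause of these shifts was not tested.

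Leaving out 1 library each gave 5 to 6 higher and 0 to 1 lower in ESCs, 3 to 7 higher and 0 to 1 lower in EpiLCs, 8 to 11 higher and 4 lower for the Neg transition, 7 to 11 higher and 4 to 5 lower for the 3xKD transition, and 0 to 2 for the difference. Over all genes, 25017 to 25216 tested, these fits gave 1876 to 2326 higher and 1443 to 1719 lower in ESCs. In EpiLCs they gave 1741 to 2026 and 1193 to 1364. For the Neg transition 2229 to 2652 were higher and 2463 to 2798 lower, and for the 3xKD transition 2153 to 2421 and 2192 to 2383. The difference had 969 to 1156 higher and 1069 to 1548 lower. Without Neg EpiLCs replicate 1 the genes higher in EpiLCs numbered 3 and without Neg EpiLCs replicate 3 they numbered 4. Of all genes tested in these fits, 1741 of 25054 and 1822 of 25033 were higher. The uncalled value of Col11a2 in ESCs turned to -0.11 without Neg ESCs replicate 2 and to -0.14 without 3xKD ESCs replicate 1, within a range of -0.14 to 0.24 over the libraries left out. Over the values of the named collagen genes alone, 1087 kept direction and call, 103 lost the call, 2 gained it and 3 reversed. Members outside these values, such as Col16a1 and Col22a1 with no filter, also gained calls and are not in this tally.

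Same-numbered libraries deviated with correlations of -0.158 to 0.123, so the numbers were not taken as pairs. With the replicate block, 6 were higher and 0 lower in ESCs, 7 and 1 in EpiLCs, 10 and 4 in the Neg transition, 8 and 5 in the 3xKD transition, and 1 differed between states. Of all 25446 tested genes, 2105 were then higher and 1687 lower in ESCs and 1940 and 1337 in EpiLCs. In the Neg transition 2420 were higher and 2749 lower, in the 3xKD transition 2316 and 2348, and for the difference 1118 and 1203.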

Other observations

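The ratio of Col9a2 to Col9a3 counts was 2.01 ± 0.793 in Neg ESCs and 7.53 ± 2.15 in 3xKD ESCs, and 2.15 ± 0.491 and 3.96 ± 2.02 in the EpiLCs of Neg and 3xKD (SD, n = 3). That of Col5a1 to Col5a2 was 20.8 ± 5.73 and 41.0 ± 3.51 in ESCs and 6.67 ± 0.387 and 14.6 ± 7.64 in EpiLCs. The ESC libraries of the lines did not overlap in either ratio, and no test was run. Both are ratios of counts without correction for transcript length.

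Of the 10 collagen genes under 0.5 CPM in every group, Col14a1 had the most counts over all libraries, 45, and Col10a1 the fewest, 2. Col24a1, with 38 counts, was the 1 gene among them called in any comparison.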
